A study of Homo sapiens with 9 samples.

Results

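The germline piRNA pathway was followed in HT-29 cells through 10 genes: *MAEL*, *PIWIL1*, *PIWIL2*, *PIWIL4*, *DDX4*, *TDRD1*, *TDRD9*, *TDRD12*, *MOV10L1* and *ASZ1*. They were taken by symbol from the 23284 gene symbols of the expression files, as autosomal factors of this pathway around *MAEL*, and *MAEL* itself was picked because every control library listed it at 0. The values of *MAEL* against the control are therefore a description and carry no test.

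HT-29 is a human colorectal adenocarcinoma line. The 9 cultures received the DMSO vehicle alone (0 µM 5-Aza, the control), 5 µM 5-Aza or 10 µM 5-Aza, with 3 biological replicates in each group and 5 days of treatment. 5-Aza stands here for 5-aza-deoxycytidine, a cytidine analogue that is built into replicating DNA and traps DNA methyltransferases. RNA of each culture was sequenced as paired ends and given as FPKM, fragments scaled by transcript length and library size, on a scale whose values sum to between 3.69e+09 and 5.91e+09 in a library. All groups are of 1 tumour cell line, so no germ cell is present as a positive control.

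Small RNAs called piRNAs guide PIWI proteins, a branch of the Argonaute family, to transposon transcripts in germ cells. Their precursors are handled in perinuclear granules (nuage) by RNA helicases, by Tudor-domain proteins that dock onto methylated arginines of PIWI proteins, and by scaffolds on the outer mitochondrial membrane. Most genes of the pathway are silent in somatic tissues, and several carry promoter CpG methylation there. Small RNAs and DNA methylation are not analysed here, and the values below are levels of the long transcripts only.

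The promoter sequences of 3 members, *MAEL*, *TDRD1* and *TDRD9*, are shown because these genes were listed at 0 in all control libraries and rested on at least 100 estimated fragments in every 5 µM library. Each line gives, 5′ to 3′ on the strand of the gene, 250 bases before the start of the main annotated transcript and the first 50 bases from it, with each CpG dinucleotide, the site of DNA methylation, in capitals. The sequences were read from the GRCh37 genome, the assembly also named hg19.
*MAEL* (chr1:166958267-166958566, plus strand): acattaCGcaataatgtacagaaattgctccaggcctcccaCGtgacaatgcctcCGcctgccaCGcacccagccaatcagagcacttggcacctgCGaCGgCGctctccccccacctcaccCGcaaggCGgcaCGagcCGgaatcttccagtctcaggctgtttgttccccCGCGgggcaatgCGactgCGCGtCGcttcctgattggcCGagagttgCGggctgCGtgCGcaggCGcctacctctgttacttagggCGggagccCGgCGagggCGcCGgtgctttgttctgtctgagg
*TDRD1* (chr10:115938862-115939161, plus strand): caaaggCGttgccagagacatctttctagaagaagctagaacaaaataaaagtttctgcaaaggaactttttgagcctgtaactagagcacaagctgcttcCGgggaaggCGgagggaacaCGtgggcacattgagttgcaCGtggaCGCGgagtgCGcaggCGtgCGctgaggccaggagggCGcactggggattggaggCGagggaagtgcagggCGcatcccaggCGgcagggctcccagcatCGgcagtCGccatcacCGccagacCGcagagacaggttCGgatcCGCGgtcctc
*TDRD9* (chr14:104394543-104394842, plus strand): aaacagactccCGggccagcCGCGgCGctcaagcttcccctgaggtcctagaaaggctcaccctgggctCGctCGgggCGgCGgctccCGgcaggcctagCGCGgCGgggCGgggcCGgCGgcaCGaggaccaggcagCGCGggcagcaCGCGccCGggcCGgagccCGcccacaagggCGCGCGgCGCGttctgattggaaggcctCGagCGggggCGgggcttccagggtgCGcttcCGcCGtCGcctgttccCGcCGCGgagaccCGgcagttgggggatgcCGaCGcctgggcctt

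The *MAEL* window held 27 CpG dinucleotides, against a median of 23 (quartiles 9 and 33) over 19852 windows of protein-coding genes built in the same way. *TDRD1* had 21 and *TDRD9* had 41, a count that exceeded 90% of all windows. The other members described here ranged from 16 in *PIWIL2* to 44 in *MOV10L1*, with 24 in *DDX4*, 26 in *TDRD12*, 29 in *ASZ1* and 30 in *PIWIL1*. *MAEL* also has an annotated start further upstream, at position 166944819 of chromosome 1, whose window held 60 CpG dinucleotides and exceeded 99.9% of windows.

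**Figure D1:**
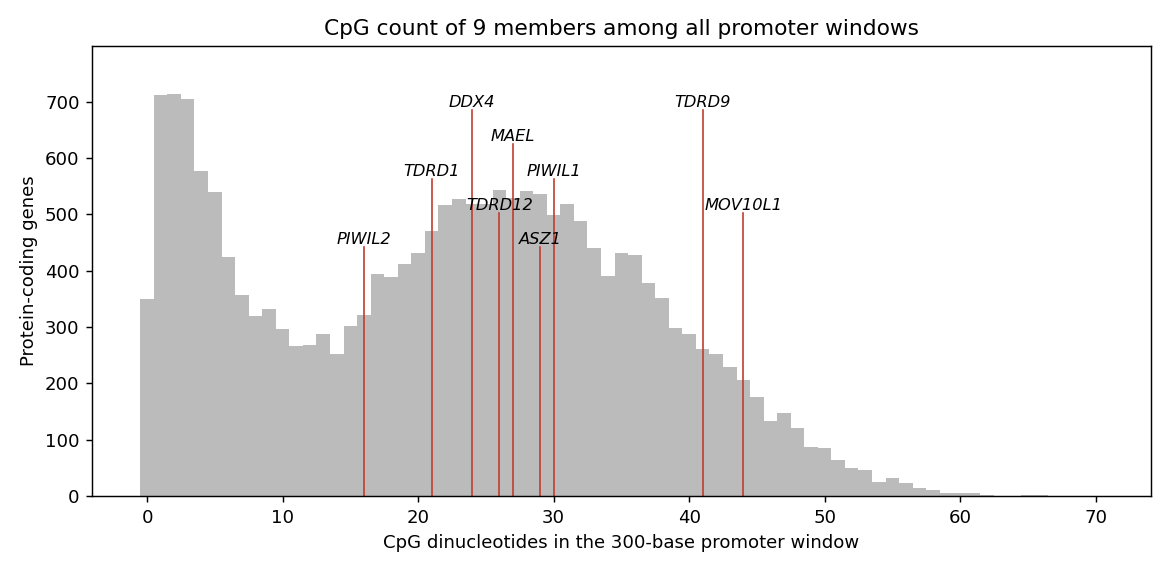
Number of CpG dinucleotides in the 300-base promoter window (x axis) against the number of protein-coding genes with that count (grey bars), with the main window of 9 members as red lines. They spread from 16 (*PIWIL2*) to 44 (*MOV10L1*) around the overall median of 23.

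A pair of short motifs tied to germline gene silencing in somatic cells were searched on both strands, after the windows had been seen. The E-box CACGTG was found in the windows of *MAEL*, *DDX4*, *TDRD1* (2 copies) and *TDRD12*, and in 8.77% of all windows. The letters TCCCGC, the core bound by E2F6, were found in 36.4% of all windows and in those of *MAEL*, *PIWIL1*, *DDX4*, *TDRD9*, *TDRD12*, *MOV10L1* and *ASZ1*. The motifs may share end bases, and a match describes the letters only.

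An FPKM of a member rested on few or many fragments, depending on the gene and the library. For 6 members the low values were whole multiples of what 1 fragment is worth, which allowed the fragments to be estimated. For *MAEL* and *TDRD9* only the 10 µM values were low enough for this check. Their step was therefore accepted only because the length it implied was near an annotated one. *PIWIL1*, *PIWIL4*, *DDX4* and *MOV10L1* had no clean step of this kind, so the annotated transcript length was used and their estimates are not whole. A single *MAEL* fragment was worth between 195 and 502 FPKM, the most in control replicate 1. Libraries held an estimated 1.18e+07 fragments (10 µM replicate 1) to 3.24e+07 fragments (5 µM replicate 3) over 17891 symbols with an annotated length. A value of 0 may also be a failed estimate, since *MALAT1*, a nuclear RNA abundant in most cells and chosen after its values were seen, was listed at 0 in 7 of the 9 libraries. The members are therefore described as listed at 0 and not as absent.

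The labelled colon epithelial cell type was checked on its markers. All 10 epithelial markers, among them *EPCAM*, *CDX2*, *VIL1* and *LGALS4*, were above 0 in all 9 libraries. Their summed FPKM ranged from 80809500 to 97186600 in the control, from 33441300 to 37912100 at 5 µM and from 26338800 to 46717400 at 10 µM. The keratins *KRT8* and *KRT18* carried this sum, and without them it was 15918232 to 19589564, 11633574 to 13474601 and 7764211 to 12850788. At 5 µM vs. 0 µM 2 of the 10 fell (*KRT8* and *KRT18*), 2 rose (*CDX1*, 4.39-fold, and *CEACAM5*, 3.01-fold, on the means) and 6 did not pass (limma), with a median log2 difference of -0.46. Of all genes, 2.17% were called down and 14.1% up. All replicates lay below the control for 6 of the 10 and above it for 3, against 23.2% and 29.4% of all genes. At 10 µM vs. 0 µM *CDX2* and *KRT20* fell (limma, log2 differences -1.38 and -1.31, adjusted p of 0.00996 and 0.0344). None rose there, beside 3.4% of all genes called down and 4.07% up. All replicates were then below the control for 7 of the 10 and above it for 1, against 26.7% and 14.4% of all genes.

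*MAEL* encodes Maelstrom, an HMG-box protein of nuage that transposon silencing in the germline depends on. The 3 control libraries listed *MAEL* at 0, and it stood at 156341, 197270 and 164360 FPKM in the 5 µM libraries and at 7114, 15007 and 16827 FPKM in the 10 µM libraries. The 3 groups did not overlap, with 5 µM the highest and 10 µM between it and the control. The values correspond to an estimated 749, 898 and 842 fragments at 5 µM and to 18, 60 and 57 at 10 µM. Within a library, *MAEL* stood at percentiles 72.2 to 75.6 of the symbols above 0 at 5 µM and at percentiles 23.2 to 34 at 10 µM. At 5 µM it was the highest of the 10 members.

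**Figure D2:**
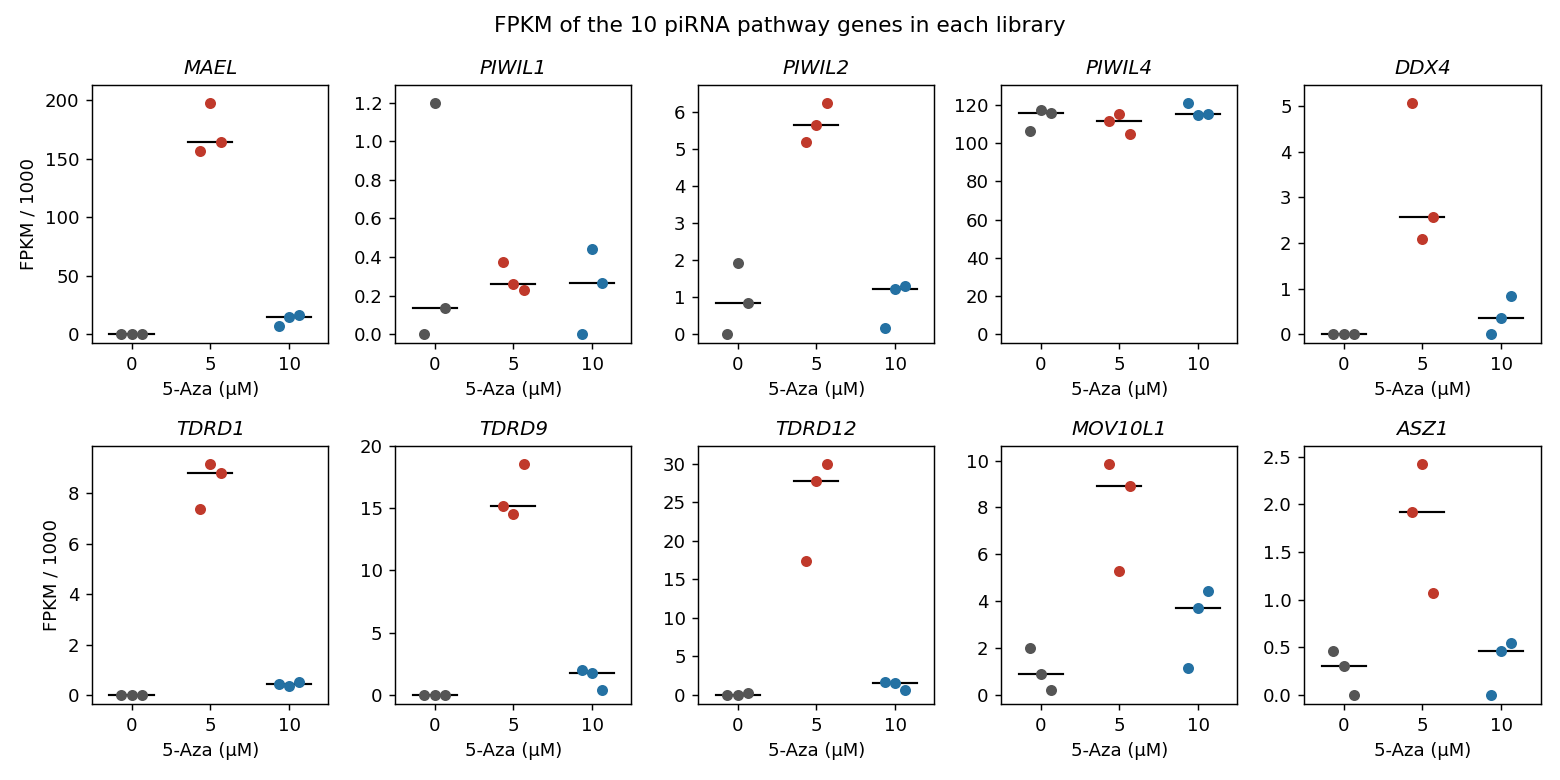
FPKM divided by 1000 (y axis, a separate linear scale for each gene) in the control (0 µM), 5 µM and 10 µM 5-Aza libraries, 1 point per library and a line at the group median. In 8 genes all 3 libraries at 5 µM (red) lie above the libraries of both other groups, while *PIWIL4* stays between 104621 and 120734 FPKM throughout and *PIWIL1* overlaps.

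The 5 µM vs. 0 µM comparison asked which genes responded to the lower dose. Of the 9 members other than *MAEL*, 5 rose (*DDX4*, *TDRD1*, *TDRD9*, *TDRD12* and *MOV10L1*), none fell and 4 did not pass the test. Calls required a change of more than 1 unit on the log2 scale together with an adjusted p no larger than 0.05 (limma with Benjamini-Hochberg adjustment over 20051 genes). With a change of that size and p under 0.05 before adjustment, the counts were 5 up and 0 down. Of all genes tested, 14.1% were called up and 2.17% down. All 3 replicates at 5 µM lay above all 3 controls for 7 of the 9 and below them for none, against 29.4% and 23.2% of all genes. The median log2 difference of the 9 was 5.60, beside 0.14 over all genes, and this median depends on the pseudocount because several controls were at 0.

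Tudor-domain proteins are the scaffolds of nuage, and 3 members belong to this family. *TDRD1*, which binds PIWI proteins through their methylated arginines, was listed at 0 in all 3 control libraries and at 7375, 9158 and 8824 FPKM at 5 µM. The 5 µM libraries were close to each other and rested on 100, 118 and 128 estimated fragments. *TDRD1* rose (limma, adjusted p = 0.000202, higher in 3 of 3 replicates). No fold is given, since the fitted log2 difference was 13.04 with a pseudocount of 1 and 3.24 with a pseudocount of 1000.

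*TDRD9* joins a Tudor domain to an RNA helicase and acts in the silencing of retrotransposons. Its control values were listed at 0 in all 3 libraries, and the 5 µM libraries had 15180, 14509 and 18529 FPKM, from 218, 198 and 285 estimated fragments. The groups stood apart, and *TDRD9* rose (limma, adjusted p = 0.000161, higher in 3 of 3 replicates). *TDRD12*, a Tudor protein with a helicase-like region needed for secondary piRNA production, was listed at 0 in control replicates 1 and 2 and at 254 FPKM in replicate 3, which is 1 estimated fragment. At 5 µM it had 17386, 27800 and 29970 FPKM, from 77, 117 and 142 fragments, so replicate 1 was the lowest of the treated libraries and still far above the control. *TDRD12* rose (limma, log2 difference 11.91, SE 2.20, adjusted p = 0.00714, higher in 3 of 3 replicates). The steps of its values correspond to a transcript of about 1531 nucleotides, shorter than the 6612 of the main annotated one, so its level is less certain against that of other genes.

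Among the RNA helicases, *DDX4*, the human homolog of VASA and a defining germ cell gene, was listed at 0 in all 3 control libraries. The 5 µM libraries had 5055, 2087 and 2575 FPKM, with replicate 1 about as high as the other two together. Its estimated fragments were 41.6, 16.3 and 22.7. *DDX4* rose (limma, adjusted p = 0.0004, higher in 3 of 3 replicates), with a fitted log2 difference of 11.55 with a pseudocount of 1 and 2.02 with a pseudocount of 1000. *MOV10L1*, the helicase that delivers piRNA precursors for cutting, was above 0 in every library, at 2021, 895 and 198 FPKM in the control and 9845, 5281 and 8896 FPKM at 5 µM. The lowest 5 µM library was above the highest control. *MOV10L1* rose 7.71-fold on the means (limma, log2 difference 3.44, SE 0.87, adjusted p = 0.0224, higher in 3 of 3 replicates). Its call was lost when any 1 of the 5 µM libraries was left out, with adjusted p-values up to 0.0867.

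PIWI proteins bind the piRNAs themselves, and none of the 3 in the list passed the test at 5 µM. *PIWIL2*, which loads primary piRNAs in the cytoplasm, had 0, 1918 and 834 FPKM in the control and 5185, 5651 and 6231 FPKM at 5 µM. The groups did not overlap, and control replicate 1 was the only library at 0. The estimated fragments were 0, 13 and 8 in the control and 56, 58 and 72 at 5 µM. The log2 difference was 5.60 (SE 2.79, limma, adjusted p = 0.154). With a pseudocount of 1000 it was 1.93 and passed (limma, adjusted p = 0.00584), and over the alternatives run the adjusted p ranged from 0.00584 to 0.285. Without control replicate 1, the library at 0, *PIWIL2* also passed (limma, adjusted p = 0.0143).

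*PIWIL4*, the nuclear PIWI protein of transcriptional silencing, was the one member at a high level without 5-Aza. It had 106211, 117519 and 115743 FPKM in the control, 111763, 115269 and 104621 FPKM at 5 µM and 120734, 114793 and 114933 FPKM at 10 µM. The groups overlapped, and the means were 113158 ± 6081 (SD, n = 3), 110551 ± 5426 (SD, n = 3) and 116820 ± 3390 (SD, n = 3). The log2 difference at 5 µM vs. 0 µM was -0.03 (SE 0.08, limma, adjusted p = 0.738), and it turned to 0.01 with median-of-ratios scaling. The gene span of *PIWIL4* also holds *FUT4* on the same strand, without shared exon bases in the main *PIWIL4* transcript.

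*PIWIL1*, the PIWI protein of meiotic spermatocytes, was low in every library. Its values were 0, 1196 and 138 FPKM in the control, 375, 258 and 229 FPKM at 5 µM and 0, 441 and 265 FPKM at 10 µM, and the groups overlapped. No library exceeded an estimated 8.46 fragments, and *PIWIL1* did not pass (limma, log2 difference 2.36, SE 2.53, adjusted p = 0.469 at 5 µM vs. 0 µM). With a pseudocount of 1000 the sign turned, to -0.08.

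*ASZ1*, also named GASZ, is an ankyrin-repeat protein that anchors nuage to mitochondria. It had 462, 306 and 0 FPKM in the control and 1919, 2421 and 1075 FPKM at 5 µM. All treated libraries lay above all controls, but they rested on only 10, 12 and 6 estimated fragments against 1, 1 and 0. The log2 difference of 5.04 (SE 2.37) did not pass (limma, adjusted p = 0.136). With a pseudocount of 1000 it was 1.15 and passed (limma, adjusted p = 0.00822), and the adjusted p ranged from 0.00822 to 0.278 over the alternatives. Without control replicate 3, where it was listed at 0, *ASZ1* passed too (limma, adjusted p = 0.0332).

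**Figure D3:**
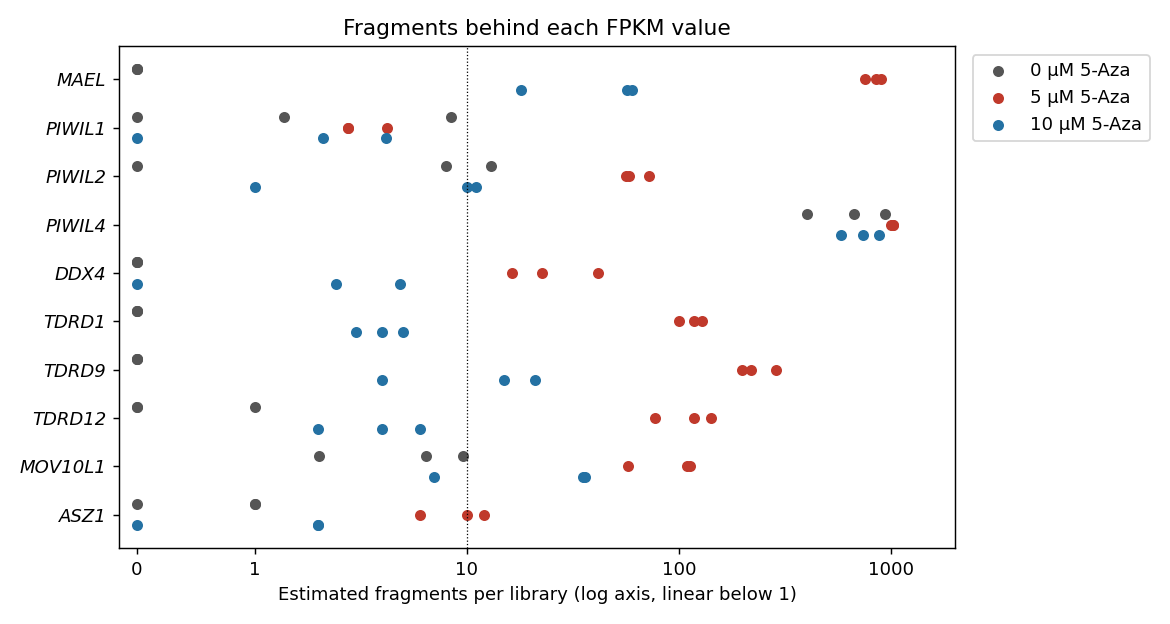
Estimated fragments per library (x axis, logarithmic above 1 and linear below) for each member, 1 point per library in the control (grey), at 5 µM (red) and at 10 µM (blue), with a dotted line at 10 fragments. Only *PIWIL4* and, with 5-Aza, *MAEL* are above 10 fragments in all 3 libraries of the 10 µM group.

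FPKM is given per length, so the levels of the members may be set against each other at 5 µM, as far as the lengths used hold. The steps implied 1531 nucleotides for *TDRD12*, 4688 for *TDRD1* and 3734 for *PIWIL2*, against 6612, 8149 and 5114 in the main annotated transcripts. The places of these 3 genes in the order are therefore less certain. *MAEL* led with a mean of 172657 FPKM, above *PIWIL4* with 110551. *TDRD12* (25052) and *TDRD9* (16073) followed, and their replicates overlapped. *TDRD1* (8452) overlapped with *MOV10L1* (8007), and *MOV10L1* with *PIWIL2* (5689). *DDX4* (3239) overlapped with *ASZ1* (1805), and *PIWIL1* was the lowest with 288.

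The 10 µM vs. 5 µM comparison asked what the higher dose did relative to the lower, and it shares the 5 µM libraries with the comparison above. Of the 10 members, 4 fell (*MAEL*, *TDRD1*, *TDRD9* and *TDRD12*), none rose and 6 did not pass (limma; 6 down and 0 up at an unadjusted p under 0.05). Of all 20085 genes tested, 4.82% were called down and 0.129% up. For 8 members all 10 µM replicates lay below all 5 µM replicates and for none above, against 25.3% and 4.37% of all genes. The median log2 difference of the members was -3.83, beside -0.31 over all genes, and the latter moved to -0.11 with median-of-ratios scaling. The median of the members depends on the pseudocount, since some 10 µM libraries were at 0. With a pseudocount of 1000, *DDX4* went from -5.50 to -1.59 and *ASZ1* from -4.76 to -1.07, while *MAEL* went from -3.82 to -3.71.

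*MAEL* fell from a mean of 172657 ± 21689 FPKM (SD, n = 3) at 5 µM to 12983 ± 5163 FPKM (SD, n = 3) at 10 µM, which is 7.52% of the 5 µM mean. Its log2 difference was -3.82 (SE 0.33, limma, adjusted p = 0.00345, lower in 3 of 3 replicates), some way below the median of all genes. Replicate 1 was the lowest of the 10 µM libraries, and that library was also the shallowest. *MAEL* kept its call under all 15 alternatives, with adjusted p-values from 0.000504 to 0.0489.

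The 3 Tudor-domain genes also fell. *TDRD1* had 419, 353 and 521 FPKM at 10 µM, from only 3, 4 and 5 estimated fragments, and its mean was 5.1% of that at 5 µM (limma, log2 difference -4.30, SE 0.41, adjusted p = 0.00381, lower in 3 of 3 replicates). *TDRD9* had 1977, 1751 and 394 FPKM, with replicate 3 far below the other two, and a mean of 8.55% of that at 5 µM (limma, log2 difference -3.85, SE 0.64, adjusted p = 0.0165, lower in 3 of 3 replicates). *TDRD12* had 1709, 1623 and 638 FPKM and again the lowest value in replicate 3, with a mean of 5.28% of that at 5 µM (limma, log2 difference -4.33, SE 0.47, adjusted p = 0.00517, lower in 3 of 3 replicates). None of the 10 µM values of these genes came near the lowest at 5 µM. The call of *TDRD9* was lost without any 1 of the 5 µM libraries (adjusted p up to 0.106), and that of *TDRD12* without 5 µM replicate 3 and with all 9 libraries in 1 fit (adjusted p of 0.0527 and 0.179).

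The helicases *DDX4* and *MOV10L1* did not pass between the doses. *DDX4* had 0, 351 and 827 FPKM at 10 µM, all below the 5 µM libraries, at no more than an estimated 4.82 fragments (limma, log2 difference -5.50, SE 2.38, adjusted p = 0.208). *MOV10L1* had 1164, 3691 and 4432 FPKM at 10 µM, with replicate 1 well below the other two, and a mean of 38.7% of that at 5 µM (limma, log2 difference -1.53, SE 0.57, adjusted p = 0.165). Among the members, *MOV10L1* thus kept a larger part of its 5 µM mean than the 4 that fell, a difference that was not tested.

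*PIWIL2* had 175, 1220 and 1309 FPKM at 10 µM, again lowest in replicate 1, and did not pass (limma, log2 difference -3.11, SE 0.81, adjusted p = 0.0731). *ASZ1* had 0, 460 and 543 FPKM, from 0, 2 and 2 estimated fragments (limma, log2 difference -4.76, SE 2.35, adjusted p = 0.25). For both genes, and for *DDX4*, the groups did not overlap, and all 3 passed with a pseudocount of 1000. *PIWIL2* also passed without 10 µM replicate 1 (limma, adjusted p = 0.0263) or replicate 2 (0.035), within a range of 0.0101 to 0.445 over its alternatives. *PIWIL4* differed by 0.08 (SE 0.11, limma, adjusted p = 0.657) and *PIWIL1* by -2.53 (SE 2.29, limma, adjusted p = 0.526), with overlapping replicates in each.

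**Figure D4:**
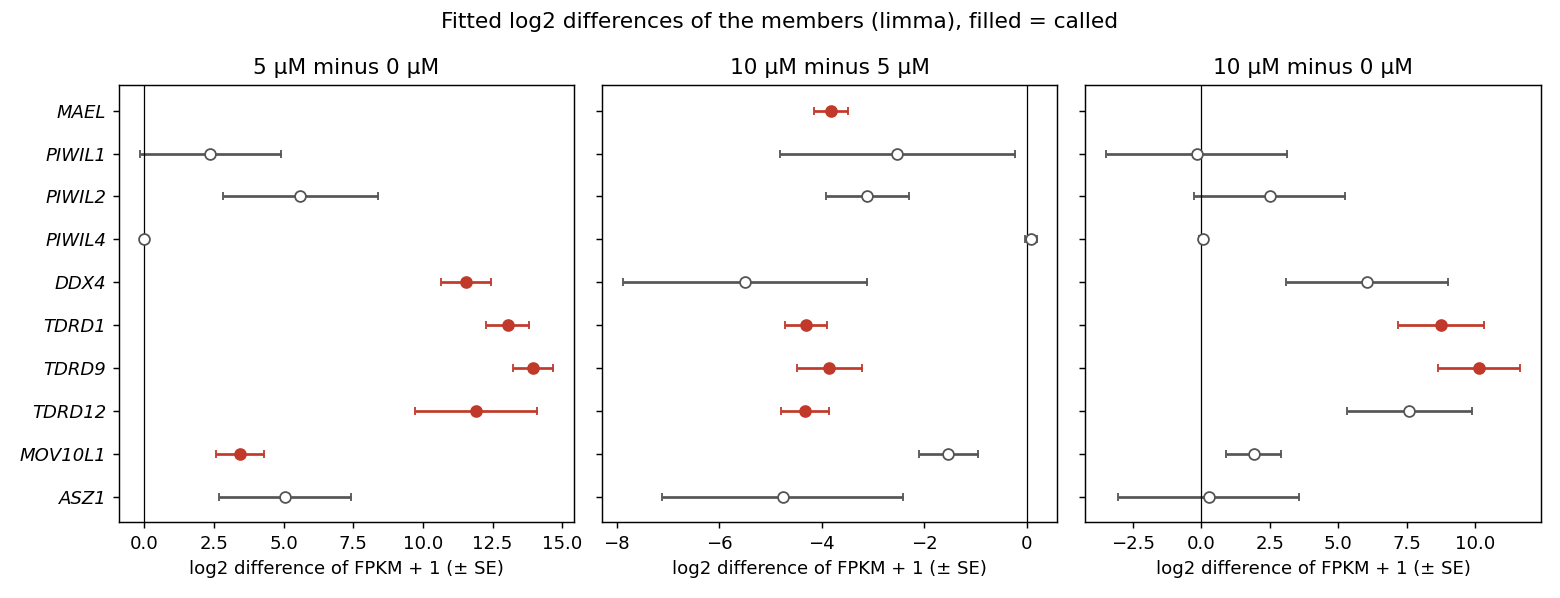
Fitted log2 difference of FPKM + 1 with its standard error (x axis, a separate scale for each comparison) for the members; filled red points were called and open points were not. *MAEL* is shown for 10 µM minus 5 µM only, and values against a control at 0 depend on the pseudocount.

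The 10 µM vs. 0 µM comparison asked whether the members still differed from the control at the higher dose, and it shares libraries with both comparisons above. Of the 9 members other than *MAEL*, 2 rose (*TDRD1* and *TDRD9*), none fell and 7 did not pass (limma; 3 up and 0 down at an unadjusted p under 0.05). Of all 18928 genes tested, 4.07% were called up and 3.4% down. All 10 µM libraries lay above all controls for 3 of the 9 (*TDRD1*, *TDRD9* and *TDRD12*) and below them for none, against 14.4% and 26.7% of all genes. The median log2 difference was 2.49 over the 9 members and -0.15 over all genes, and the latter became 0.08 with median-of-ratios scaling. The median of the members depends on the pseudocount, since several libraries were at 0. It was the value of *PIWIL2*, whose means were 901 FPKM at 10 µM and 917 FPKM in the control. With a pseudocount of 1000 the difference of *PIWIL2* was 0.06.

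*TDRD1* (limma, log2 difference 8.74, SE 1.56, adjusted p = 0.0166) and *TDRD9* (limma, log2 difference 10.12, SE 1.50, adjusted p = 0.00996) were higher in 3 of 3 replicates against controls listed at 0. With a pseudocount of 1000 these log2 differences were 0.52 and 1.17. The call of *TDRD1* rested on 3 to 5 fragments a library, and it was lost with a pseudocount of 1000 (limma, adjusted p = 0.054, with a range of 0.000313 to 0.0673 over the alternatives) and without control replicate 2 (0.0518), 10 µM replicate 1 (0.0522) or 10 µM replicate 3 (0.0673). Under the minimum of 10 estimated fragments *TDRD1* was left out of the test, so its call was lost there too. *TDRD12* did not pass (limma, log2 difference 7.58, SE 2.28, adjusted p = 0.0629). It did pass without control replicate 3, where its 1 control fragment lay (0.0192), with a pseudocount of 1000 (0.0286) and with all 9 libraries in 1 fit (0.0188). With the minimum of 10 estimated fragments it passed too (0.046). That minimum took the annotated 6612 nucleotides for *TDRD12*, while its steps gave only 4, 6 and 2 fragments at 10 µM. The replicates of *DDX4*, *MOV10L1*, *PIWIL1*, *PIWIL2*, *PIWIL4* and *ASZ1* overlapped with the control, and their adjusted p-values by limma lay between 0.184 (*DDX4*) and 0.98 (*PIWIL1*). Without 10 µM replicate 1, where it was listed at 0, *DDX4* passed (limma, adjusted p = 0.0489).

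The wider pathway was described by 20 further piRNA genes. At 5 µM vs. 0 µM, 11 of the 20 rose (*GTSF1*, *TDRD6*, *RNF17*, *GPAT2*, *FKBP6*, *PNLDC1*, *EXD1*, *MYBL1*, *BTBD18*, *MORC1* and *STK31*) and none fell (limma; 13 up and 0 down at an unadjusted p under 0.05), with a median log2 difference of 2.99. This median, too, depends on the pseudocount, because several of these genes had controls at 0. All replicates lay above the control for 15 of the 20, beside the 29.4% of all genes, and the calls are to be read against the 14.1% of all genes called up and the 2.17% called down. *GTSF1*, a small zinc-finger partner of PIWI proteins, was listed at 0 in the control and at a mean of 18928 FPKM at 5 µM (limma, adjusted p = 0.000161). *PNLDC1*, the exonuclease that trims the 3′ ends of piRNAs, rose 41.2-fold on the means (limma, log2 difference 5.74, SE 0.64, adjusted p = 0.00108). *MORC1*, an ATPase of germline transposon silencing, *RNF17*, a Tudor protein, and *EXD1* were listed at 0 in the control and at means of 1238, 798 and 464 FPKM. With a pseudocount of 1000 the calls of *RNF17* and *EXD1* were lost, at log2 differences of 0.85 and 0.54, and that of *EXD1*, on 6, 3 and 3 estimated fragments, also with at least 10 estimated fragments required. *FKBP6* lost its call without any 1 of the 5 µM libraries.

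Several of the further genes were also lower at 10 µM than at 5 µM. Of the 20, 5 fell (*TDRD6*, *GPAT2*, *PNLDC1*, *BTBD18* and *STK31*) and none rose (limma; 9 down and 0 up at an unadjusted p under 0.05), and 13 had all replicates below those at 5 µM. Of all genes, 4.82% were called down and 25.3% had all replicates below. *PNLDC1* fell to 11% of its 5 µM mean (limma, log2 difference -3.22, SE 0.28, adjusted p = 0.00345) and *GPAT2*, a mitochondrial partner of the pathway, to 14.5% (limma, log2 difference -2.78, SE 0.31, adjusted p = 0.00522). *TDRD6* fell to 19% (limma, adjusted p = 0.00448), *STK31* to 37.5% (limma, adjusted p = 0.0316) and *BTBD18* to 42.2% (limma, adjusted p = 0.0305). *GTSF1* and *MORC1* had smaller shares, 2.23% and 2.88%, without overlap, but did not pass (limma, adjusted p of 0.0626 and 0.0601). Each was listed at 0 in 2 of the 10 µM libraries. With a pseudocount of 1000 both passed (limma, adjusted p of 0.00172 and 0.00548), and so did *FKBP6* (0.0345). *BTBD18* and *STK31* lost their calls without any 1 of the 5 µM libraries or without 10 µM replicate 3, and also with the replicate number as a block and with median-of-ratios scaling. *GPAT2* lost its call without 5 µM replicate 3. Against the control at 10 µM, none of 19 tested passed by limma (2 up and 0 down at an unadjusted p under 0.05), and 1 passed without control replicate 1 (*PNLDC1*) or without 10 µM replicate 2 (*EXD1*). Of all genes, 4.07% were called up and 3.4% down in this comparison. All 10 µM replicates lay above all controls for 7 of the 19 and below them for none, against 14.4% and 26.7% of all genes. The absence of calls thus does not show levels equal to the control.

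The 10 µM mean as a share of the 5 µM mean was uneven between genes, and so was the share that the control already held. Over the 5 members that rose at 5 µM, the 10 µM share was 5.1% to 38.7% with a median of 8.55%, and the control share was 0% to 13% with a median of 0%. Over the 11 further genes that rose, the medians were 30.3% at 10 µM and 6.17% in the control, and over all 2818 genes called up they were 44.6% and 13%. Some of the further genes were at or near their control share at 10 µM, among them *FKBP6* with 42.6% against 42.7% and *STK31* with 37.5% against 30.2%. These shares describe genes picked by their 5 µM values, and no test was made of them.

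The broadly expressed relatives of the members changed by less than the fold required at 5 µM. Of 12 genes of small RNA pathways in somatic cells, among them the 4 Argonaute genes *AGO1* to *AGO4*, the helicase *MOV10*, *PRMT5*, which methylates arginines of PIWI proteins, and *DICER1*, none was called by limma at 5 µM vs. 0 µM or at 10 µM vs. 5 µM, nor with a change of that size at an unadjusted p under 0.05. Of all genes, 14.1% were called up and 2.17% down at 5 µM vs. 0 µM, and 0.129% and 4.82% at 10 µM vs. 5 µM. With 12 genes, an absence of calls is not far from such shares and is not read as a trait of these genes. The median log2 differences of the 12 were -0.23 and -0.33. At 10 µM vs. 0 µM only *SND1*, a Tudor-domain nuclease, was called, and it fell (limma, log2 difference -1.03, SE 0.24, adjusted p = 0.0338), a call lost without any 1 of the libraries except 10 µM replicate 2. Smaller differences at 5 µM vs. 0 µM had adjusted p-values under 0.05 by limma in both directions. *DROSHA* (log2 difference -0.60, adjusted p = 0.00107), *TDRD3* (-0.51, 0.0184), *PRMT5* (-0.43, 0.0187) and *SND1* (-0.39, 0.0428) were lower, while *MOV10*, the somatic paralog of *MOV10L1* (0.40, 0.0265), and *AGO3* (0.38, 0.0311) were higher. All replicates were below the control for 5 of the 12 and above it for 2, against 23.2% and 29.4% of all genes. At 10 µM vs. 0 µM all replicates were below the control for 6 of the 12 and above it for none, against 26.7% and 14.4%. The 1 call there stands beside 3.4% of all genes called down and 4.07% called up.

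**Figure D5:**
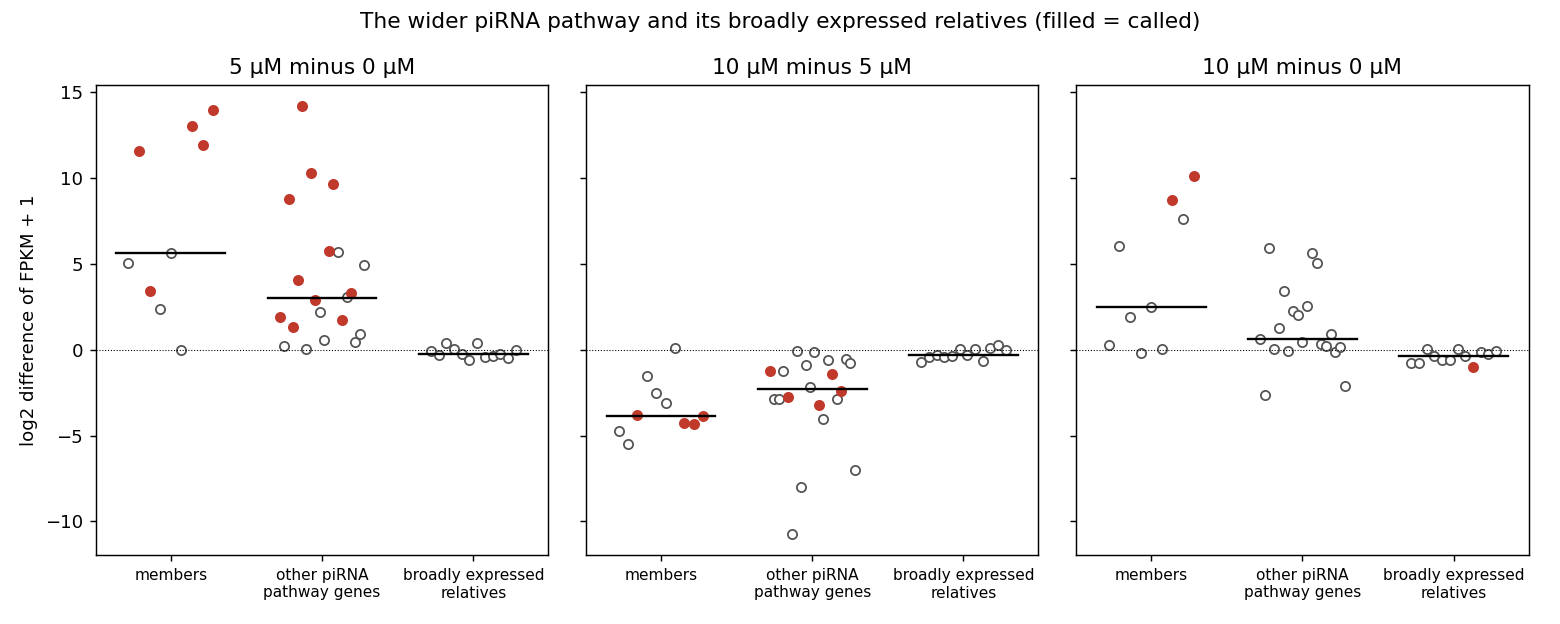
Log2 difference of FPKM + 1 (y axis) in the 3 comparisons for the members (without *MAEL* against the control), 20 further piRNA genes and 12 broadly expressed relatives; each point is a gene, filled red where called, and the black line is the median. At 5 µM minus 0 µM the medians are 5.60, 2.99 and -0.23. Those of the members and the further piRNA genes depend on the pseudocount, because several of their controls were listed at 0.

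Markers of other cell types were also followed. Of 8 male germ cell markers, 7 were tested at 5 µM vs. 0 µM, and 4 rose (*DAZL*, *SYCP3*, *STRA8* and *PRM2*), beside 14.1% of all genes, while *PRM1*, *ACRV1* and *NANOS2* did not pass (limma, adjusted p of 0.405, 0.115 and 0.0857). At 10 µM vs. 5 µM 3 of the 7 fell (*DAZL*, *SYCP3* and *PRM2*), beside 4.82% of all genes. The calls of *STRA8* and *PRM2* rested on only 6, 7 and 4 and on 3, 1 and 5 estimated fragments at 5 µM. The summed FPKM of the 8 markers ranged from 6721 to 12806 in the control, from 85564 to 123289 at 5 µM and from 8162 to 17630 at 10 µM. *SYCP3*, above 0 in every control library (5046 to 8326 FPKM), carried most of this sum at 5 µM (52652 to 80311). *TNP1*, a marker of late spermatids, was listed at 0 in all 9 libraries, and *PRM1* in all but 5 µM replicate 3. Summed levels were also highest at 5 µM for 5 leukocyte markers, at 689911 to 735131 FPKM against 158210 to 176711 in the control and carried by *CD68* (653377 to 690427 against 121931 to 128554), and for 6 fibroblast markers, at 82214 to 88739 against 22549 to 32355. Of the 6 fibroblast markers 4 rose (*COL1A1*, *COL1A2*, *LUM* and *PDGFRB*) and of the 5 leukocyte markers 2 (*CD3E* and *CD68*), and none fell (limma, 5 µM vs. 0 µM). The calls of *COL1A2* and *CD3E* were lost with a pseudocount of 1000. Calls were thus not particular to the germ cell markers. The part of other cell types in the values of the members was not tested, and in RNA of a whole culture fewer cells of a type and less RNA per cell cannot be told apart.

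The genes most like *MAEL* were sought by Pearson's r of log2(FPKM + 1000) over the 9 libraries, among 8229 genes that reached at least 50% of its largest FPKM. The closest were *OSTBETA* (r = 0.995), *PNMA5* (0.994), *PAGE2B* (0.993), *NUCB2* (0.993) and *SECTM1* (0.992). *PNMA5* and *PAGE2B* were likewise at or near 0 in the control, with no control library above 246 FPKM. *OSTBETA*, a subunit of a bile acid transporter, and *NUCB2* were at 95910 FPKM or more in every library, and so shared the order of the groups but not the level of the control. *PAGE2B* has near-identical copies between which fragments may have been split, so its value is uncertain. Of the other members, *TDRD9* and *TDRD12* had the highest r with *MAEL* (0.94 each), and *PIWIL4* (-0.23) and *PIWIL1* (-0.07) the lowest.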

How the data were processed

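RNA was measured in 9 HT-29 cultures, 3 per group, and the replicates are separate cultures per the labels. According to the methods of the study, the authors filtered the 100 bp reads with FASTX-Toolkit, mapped them with TopHat to hg19, and made the deposited FPKM values with Cufflinks. Cufflinks options and annotation release are not given in the sources used here, and raw counts were not used here. Repeated symbols (543, no member) were summed.

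Values were tested as log2(FPKM + 1), where the pseudocount of 1 lies below the value of 1 fragment. Genes whose largest FPKM reached 10 in either group of a pair entered limma 3.58.1 (R 4.3.3, moderated test with an intensity trend), fitted to the 6 libraries of each pair, with Benjamini-Hochberg adjustment. The scripts were tested on simulated data. The members, the gene lists and the rules were chosen with earlier results of these data known. All members are named, with the called genes of 2 further lists (values for at most 5 called genes per list and comparison) and the 5 genes most like *MAEL*.

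Alternatives were pseudocounts of 0.1 and 1000, no filter, 10 FPKM in all 3 replicates of a group, 1 fit of all 9 libraries, a replicate block, median-of-ratios scaling, the largest entry of a repeated symbol, each replicate left out and, chosen after seeing the data, at least 10 estimated fragments. For this minimum the fragments of every gene were taken from its annotated length. Fragments were estimated from the steps of low values (whole within 0.02), with library terms from 12 microRNA genes of 110 nucleotides, at which 46 of 46 values were whole within 0.01, or from annotated length (GENCODE, GRCh37). The promoter window of 1 member is not reported here. Intervals for counting error are not given, since fragments are estimates.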

Additional observations from a re-analysis of the deposited data

How the results depend on the processing

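At 5 µM vs. 0 µM, between 4 and 7 of the 9 members were called under the alternatives, the most with a pseudocount of 1000 (7) and 4 without any 1 of the 5 µM libraries. At 10 µM vs. 5 µM the count of members was 4, became 7 with a pseudocount of 1000, and ranged from 2 to 5 with 1 library left out, 2 being the value without 5 µM replicate 3. At 10 µM vs. 0 µM it was 2 and ranged from 1 to 3 with 1 library left out, 1 being the value without control replicate 2 and without 10 µM replicate 3, where the call of *TDRD1* was lost.

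Of the 20 further piRNA genes, 5 were called at 10 µM vs. 5 µM. The count was 8 with a pseudocount of 1000, with 10 FPKM in all 3 replicates and with at least 10 estimated fragments, and 2 to 9 with 1 library left out: 3 without 5 µM replicate 1 or 2 or 10 µM replicate 3, 2 without 5 µM replicate 3, and 9 without 10 µM replicate 2. At 10 µM vs. 0 µM none was called, against 3 with a pseudocount of 1000 and with all 9 libraries in 1 fit, 2 with 10 FPKM in all 3 replicates, with median-of-ratios scaling and with at least 10 estimated fragments, and 0 to 1 with 1 library left out. Of the broadly expressed relatives, 1 was called there, 0 with median-of-ratios scaling, and 0 to 2 with 1 library left out, *SND1* being lost without each library but 10 µM replicate 2, where *AGO2* was called as well. The cause of these changes was not tested.

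Signs turned only for members that did not pass. *PIWIL1* at 5 µM vs. 0 µM was -0.08 with a pseudocount of 1000 and -0.53 without control replicate 1, in a range of -0.53 to 4.58 with 1 library left out. At 10 µM vs. 5 µM it was 0.28 without 10 µM replicate 1 (range -4.11 to 0.28), and at 10 µM vs. 0 µM it was 2.05 and 0.50 without control replicates 2 and 3 and 2.64 without 10 µM replicate 1 (range -3.06 to 2.64). *PIWIL4* at 5 µM vs. 0 µM was 0.01 with median-of-ratios scaling and without 5 µM replicate 3. *PIWIL2* at 10 µM vs. 0 µM was -0.95 without control replicate 1 (range -0.95 to 4.50). *ASZ1* there was -2.58 without control replicate 3, and -1.16 and -1.28 without 10 µM replicates 2 and 3 (range -2.58 to 3.26).

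Replicates with the same number share only that number: the correlation of their deviations from the group means over 15278 genes was -0.312 to 0.22 for 9 pairs with the same number and -0.277 to 0.211 for 18 pairs with different numbers. With the replicate number as a block, 5, 4 and 2 members were called in the 3 comparisons, as without it, while the further piRNA genes called at 10 µM vs. 5 µM went from 5 to 3. Over all genes, 10 µM vs. 5 µM gave 26 up and 969 down, against 11 and 407 with the block, and 10 µM vs. 0 µM gave 771 up and 644 down, against 1125 and 284 with median-of-ratios scaling.

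Depth limits *PIWIL1*, *ASZ1* and, at 10 µM, *DDX4*, *TDRD1* and *TDRD12*, whose values there rest on at most 6 estimated fragments a library, so a missed threshold does not show equal levels.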
